A study of Homo sapiens with 12 samples.

Results

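The genes described here are the caspases CASP2, CASP6, CASP8 and CASP9, the apoptosome genes APAF1 and CYCS, and the inhibitor of apoptosis (IAP) genes XIAP and BIRC2. Every probe set whose array annotation names 1 of these 8 genes was taken, which gave 18 of the 22277 probe sets on the array, for 8 of the 11963 genes that a probe set names alone, and 0 of the 18 named a further gene. A probe set is a group of short probes that together read 1 region of a transcript, and the suffix _x_at marks those whose probes can also bind related transcripts. K562, a human chronic myeloid leukaemia line that carries the BCR-ABL1 fusion kinase, was treated for 24 h with 0.05 µM nilotinib (AMN107), 0.5 µM imatinib (STI571) or DMSO, the solvent control. Each group had 4 Affymetrix U133A 2.0 arrays, and all cells shared the same medium with fetal bovine serum. Nilotinib was developed from imatinib and differs from it in the group that takes the place of the methylpiperazine end, and both block the ABL kinase. The doses differed, each being described in the labels as the half-maximal inhibitory concentration. K562 is 1 cell line. Whether each array had a culture of its own is not stated, and the spread that the p-values rest on may therefore be technical.

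Caspases are proteases that take a cell apart during apoptosis. In the mitochondrial route, cytochrome c (CYCS) leaves the mitochondrion and binds APAF1, which assembles into the apoptosome and activates CASP9. In the death receptor route, ligand-bound receptors activate CASP8 through adaptor proteins. Both routes converge on executioner caspases such as CASP6, which cleaves nuclear lamins, while CASP2 is an initiator with its own adaptor complex. IAP proteins act against the pathway: XIAP binds and blocks caspases, and BIRC2 (cIAP1) is a ubiquitin ligase of tumour necrosis factor receptor signalling. Blocking BCR-ABL1 in leukaemia cells is known to lead to apoptosis, and most regulation of these proteins is by cleavage and binding, which mRNA levels do not show.

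CYCS and BIRC2 were the members with the same probe set called against DMSO for both drugs. Their calls went in opposite directions and held in at least 24 of 25 alternatives, and their promoters are therefore shown. The windows run from 250 bases before to 50 bases after the transcript start in RefSeq, build GRCh38.p14. CYCS lies on the minus strand at chr7:25125211-25125510 and the upstream of the BIRC2 windows on the plus strand at chr11:102346964-102347263. Capitals mark matches, on either strand, to the motifs searched.
CYCS: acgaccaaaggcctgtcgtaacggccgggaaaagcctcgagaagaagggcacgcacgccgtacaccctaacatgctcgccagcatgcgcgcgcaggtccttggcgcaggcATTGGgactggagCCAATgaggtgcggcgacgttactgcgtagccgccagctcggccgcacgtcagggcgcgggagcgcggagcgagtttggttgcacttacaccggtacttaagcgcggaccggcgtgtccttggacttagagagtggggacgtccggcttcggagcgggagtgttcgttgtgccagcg
BIRC2: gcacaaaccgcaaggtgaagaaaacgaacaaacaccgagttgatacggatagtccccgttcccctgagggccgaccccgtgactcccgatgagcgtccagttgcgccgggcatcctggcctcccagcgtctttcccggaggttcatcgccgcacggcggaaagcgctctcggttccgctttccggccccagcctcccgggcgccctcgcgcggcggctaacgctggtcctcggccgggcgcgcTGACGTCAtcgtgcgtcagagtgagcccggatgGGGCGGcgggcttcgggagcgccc

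The CYCS window held 2 CCAAT boxes (CCAAT, found in 34.6% of 34943 promoter windows of 300 bases). The BIRC2 window held 1 cyclic AMP response element (TGACGTCA, in 1.84% of windows) and 1 GC box (GGGCGG, in 44.9%). Neither window matched the E-box bound by MYC (CACGTG, in 7.23%), a FOXO motif (GTAAACA, in 3.42%) or a STAT5 motif (TTCNNNGAA, in 7.66%). For NRF1 only 1 pattern was searched (in 5.74%), and neither window matched it. Whether either window holds an NRF1 site of other letters was not tested. The motifs were chosen after the promoters had been seen. A match is a description of letters and not a bound site. A missing match says only that the letters searched are not in the window.

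The arrays had been scaled by the authors to a common level, with a mean between the 2% tails of 500.1 to 500.2 on all 12. The median signal of an array was nevertheless 166.3 to 193.8 with nilotinib and 134.6 to 154.7 with imatinib, against 116.9 to 121.4 with DMSO, so dim probe sets lay higher with the drugs. For actin, the control gene probed at both ends of its transcript to judge RNA integrity, the 3'/5' ratio was above 3.5 on 4 arrays (nilotinib replicates 1 and 2, imatinib replicates 5 and 6). Of the markers fixed for K562, the 5 measured (TFRC, TAL1, NFE2, EPOR and GATA1) all passed the filter on low values, with a summed signal of 28459 to 29448 with nilotinib, 24486 to 27179 with imatinib and 18879 to 22392 with DMSO. Of 3 measured monocyte markers CD14 and CD163 lay below the filter and LYZ, the lysozyme gene, did not. Their summed signal was 1686 to 2361 with nilotinib and 2015 to 2674 with imatinib, against 2813 to 3102 with DMSO. Of 5 lymphocyte markers 3 passed the filter, with sums of 356 to 807 with nilotinib, 332 to 646 with imatinib and 518 to 631 with DMSO. Of 4 fibroblast markers 2 passed it, with sums of 695 to 765 with nilotinib, 324 to 621 with imatinib and 307 to 566 with DMSO. No marker value was at 0, and the part of other cells in the results was not tested.

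Of the 18 probe sets, 12 lay above the filter on low values and were tested, and they covered all 8 genes. With nilotinib 1 rose, 3 fell and 8 did not pass limma's test at an adjusted p of 0.05, so 4 of 12 were called, against 54.9% of the 11696 probe sets tested in that comparison (33.1% higher and 21.8% lower). With imatinib 2 rose and 3 fell, so 5 of 12 were called, against 35.6% of all (20% higher and 15.6% lower). Nilotinib and DMSO arrays were fully apart for 4 of the 12, against 48% of all probe sets tested, and imatinib and DMSO arrays for 7 of the 12, against 36.6%. The median log2 fold change of the 12 was -0.17 with nilotinib and -0.06 with imatinib, beside 0.15 and 0.09 over all probe sets tested. Both comparisons share the 4 DMSO arrays. The count for nilotinib was 2 without DMSO replicate 11, where 50.3% of all were called. That for imatinib was 3 without DMSO replicate 12 and also 3 without the 4 arrays of high actin ratio, where 31.9% and 35% of all were called. Centring each array on its median moved the median of all probe sets to -0.37 with nilotinib and -0.13 with imatinib, and the members called were then 9 lower and none higher with nilotinib and 5 lower and 1 higher with imatinib. Of all probe sets tested, 56.8% were then called with nilotinib (47.2% lower) and 35.9% with imatinib (26.6% lower). Under that centring 17% of the called probe sets were higher with nilotinib, against 60.4% without it, 47% with quantile normalization and 47.5% with cyclic loess. For imatinib these shares were 26.1%, 56.2%, 51.3% and 49% in the same order of settings.

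**Figure D1:**
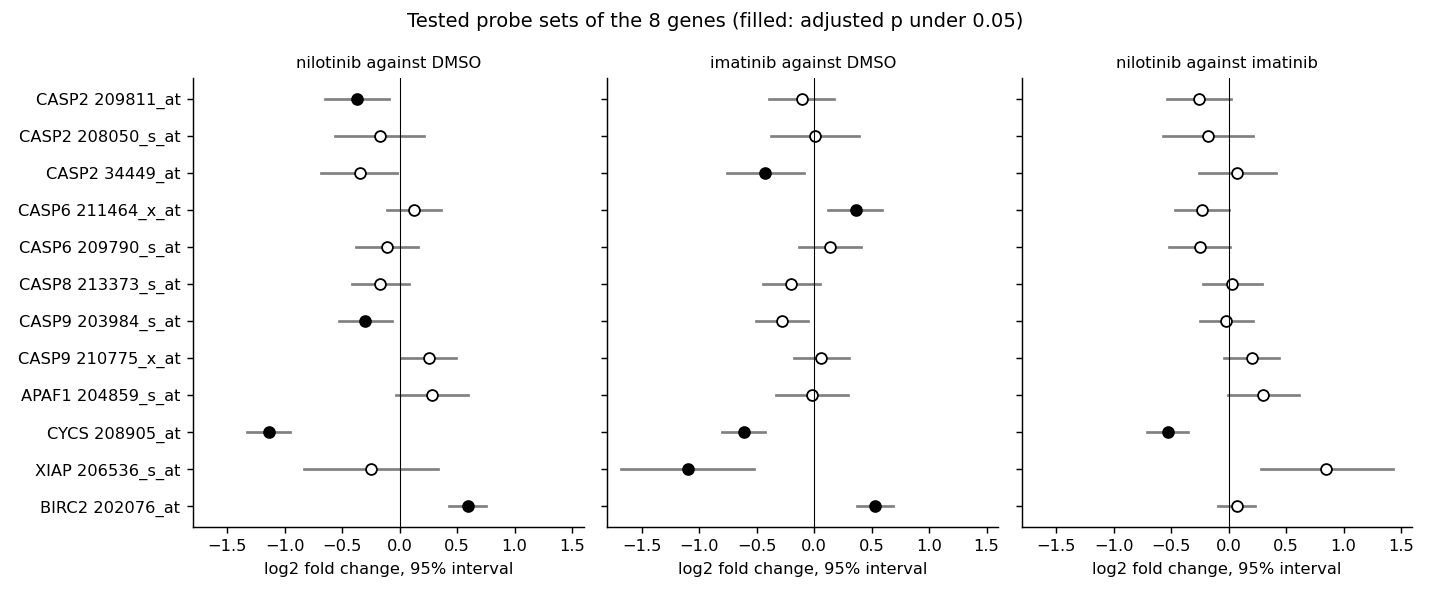
Log2 fold change (horizontal axis, difference of log2(signal + 16)) of the 12 tested probe sets in the 3 comparisons, with 95% intervals from limma as grey lines; filled points had an adjusted p under 0.05. CYCS lies left of 0 in all 3 panels, and BIRC2 lies right of 0 against DMSO with both drugs.

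CYCS, which encodes cytochrome c, the electron carrier of the respiratory chain and the trigger of the apoptosome, fell with both drugs. Its only probe set, 208905_at, had signals of 6048, 4799, 5536 and 4821 with nilotinib, 7681, 8706, 7256 and 6973 with imatinib, and 10428, 12768, 11929 and 11709 with DMSO. No array of any group overlapped with another group, nilotinib being lowest and DMSO highest. The mean was 5301 ± 605 with nilotinib and 7654 ± 759 with imatinib, against 11709 ± 968 with DMSO (SD, n = 4 each). On the log2 scale CYCS fell by 1.14 ± 0.09 with nilotinib (SE, adjusted p = 3.90e-09) and fell by 0.61 ± 0.09 with imatinib (adjusted p = 1.85e-05). In these bulk samples a smaller share of cells with CYCS mRNA and less CYCS mRNA per cell cannot be told apart. The call held in all 25 alternatives for each drug, with log2 fold changes of -1.67 to -1.02 for nilotinib and -0.84 to -0.57 for imatinib.

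**Figure D2:**
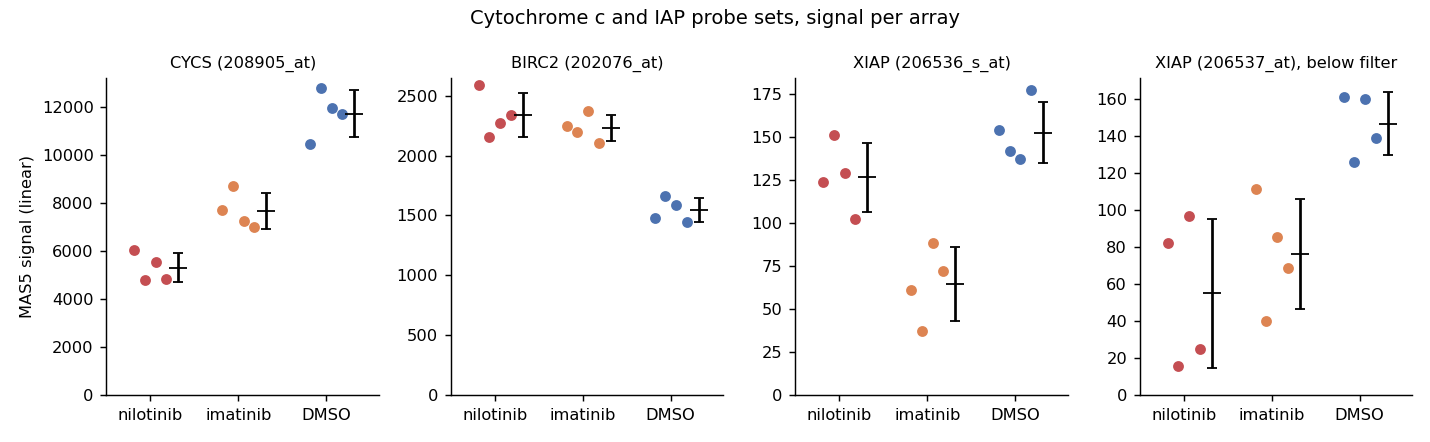
MAS5 signal (vertical axis, linear) of CYCS, BIRC2 and the 2 XIAP probe sets on each array; points are arrays and the black bars the mean and SD of 4 arrays. CYCS is highest with DMSO (10428 to 12768), BIRC2 is lowest with DMSO (1445 to 1666), and the XIAP probe sets differ in which drug has the lower signal.

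APAF1, the scaffold that cytochrome c binds, was not called with either drug. Its tested probe set, 204859_s_at, had 379, 347, 280 and 288 with nilotinib, 261, 248, 257 and 264 with imatinib, and 271, 241, 255 and 278 with DMSO. The nilotinib arrays lay just above the others, and the 2 highest were the 2 of high actin ratio. The log2 fold change was 0.28 ± 0.15 with nilotinib (SE, adjusted p = 0.110, 95% interval -0.03 to 0.59) and -0.02 ± 0.15 with imatinib (adjusted p = 0.940, -0.33 to 0.29). The value for nilotinib passed in 1 of 25 alternatives, without a variance trend (adjusted p = 0.0342), and turned to -0.24 with median centring. Its other probe sets lay below the filter, 211554_s_at with 36.5 to 107 with nilotinib, 29.8 to 54.7 with imatinib and 13.8 to 64.6 with DMSO, and 211553_x_at with 14.2 to 114, 10.9 to 64.8 and 3.92 to 37.8 in the same order of groups. All their groups overlapped, and with no filter neither passed with either drug.

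CASP9, the initiator that the apoptosome activates, had a pair of probe sets that did not move alike. The probe set 203984_s_at had 506, 582, 572 and 597 with nilotinib, 533, 617, 492 and 658 with imatinib, and 680, 691, 715 and 710 with DMSO. Every array of either drug lay below every DMSO array. It fell by 0.30 ± 0.11 on the log2 scale with nilotinib (SE, adjusted p = 0.0257), and with imatinib it had -0.28 ± 0.11, which did not pass (adjusted p = 0.0509). The probe set 210775_x_at had 515, 450, 529 and 542 with nilotinib, 434, 397, 468 and 470 with imatinib, and 422, 412, 457 and 407 with DMSO. Its groups overlapped, and its log2 fold changes of 0.25 ± 0.11 with nilotinib (adjusted p = 0.0716) and 0.06 ± 0.11 with imatinib (adjusted p = 0.746) did not pass.

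The ratio of the CASP9 probe sets on the same array, 203984_s_at over 210775_x_at, does not change when 1 factor scales the whole array. Quantile normalization, cyclic loess or a difference in background can change it, which was not tested. The ratio was 0.98, 1.29, 1.08 and 1.10 with nilotinib, 1.23, 1.55, 1.05 and 1.40 with imatinib, and 1.61, 1.68, 1.56 and 1.74 with DMSO. All 8 ratios of the treated arrays were below the 4 of DMSO, the nearest being 1.55 with imatinib and 1.56 with DMSO. The same ratio for CASP6, 211464_x_at over 209790_s_at, was 0.94 to 1.76 with nilotinib, 0.99 to 1.36 with imatinib and 0.79 to 1.22 with DMSO. For CASP2, 209811_at over 34449_at, it was 1.51 to 1.98, 1.84 to 2.46 and 1.65 to 1.81 in the same order. The array annotation does not say which CASP9 transcripts each CASP9 probe set reads, and binding of 210775_x_at to related transcripts was not tested. The nilotinib call of 203984_s_at was lost without nilotinib replicate 1 (-0.25, adjusted p = 0.0720), DMSO replicate 11 (-0.29, adjusted p = 0.0587) or DMSO replicate 12 (-0.30, adjusted p = 0.0536), and with the 4 high-actin-ratio arrays left out (-0.25, adjusted p = 0.106). With CASP9 tested by the mean of its probe sets, the nilotinib value was -0.03 (adjusted p = 0.819), so no fall of the gene as a whole was called. The imatinib value passed without nilotinib replicate 1 (adjusted p = 0.0458) or 2 (0.0489), or without imatinib replicate 6 (-0.32, adjusted p = 0.0469) or 8 (-0.35, adjusted p = 0.0254), and in 11 of 25 alternatives in all. The nilotinib value of 210775_x_at passed without nilotinib replicate 2 (0.31, adjusted p = 0.0350), with the 4 high-actin-ratio arrays left out (0.33, adjusted p = 0.0413) and without a variance trend (0.25, adjusted p = 0.0327), and turned to -0.27 with median centring.

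**Figure D3:**
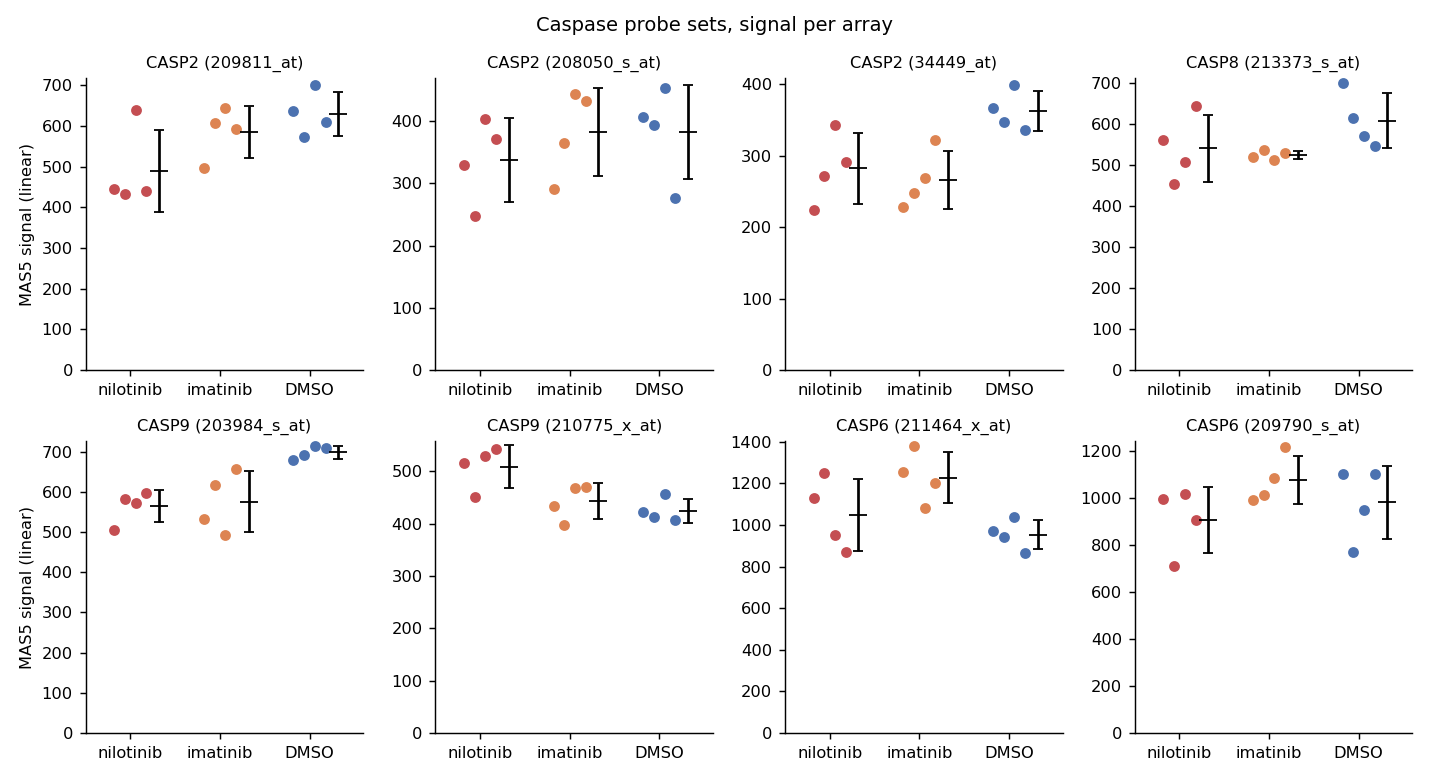
MAS5 signal (vertical axis, linear) of the 8 tested probe sets of CASP2, CASP8, CASP9 and CASP6 on each array; points are arrays and the black bars the mean and SD of 4 arrays. The treated arrays of CASP9 203984_s_at lie below all DMSO arrays (680 to 715), while those of 210775_x_at overlap with DMSO (407 to 457).

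CASP8, the initiator of the death receptor route, was not called by its tested probe set, 213373_s_at. The signals were 560, 453, 508 and 645 with nilotinib, 520, 536, 512 and 530 with imatinib, and 699, 616, 571 and 546 with DMSO. The imatinib arrays all lay below the DMSO arrays and the nilotinib arrays overlapped with them. The log2 fold change was -0.17 ± 0.12 with nilotinib (SE, adjusted p = 0.244, 95% interval -0.42 to 0.08) and -0.20 ± 0.12 with imatinib (adjusted p = 0.209, -0.45 to 0.05), and both passed with median centring (-0.69, adjusted p = 2.73e-04, and -0.43, adjusted p = 0.0214). The probe set 207686_s_at, below the filter, had 9.29 to 34.9 with nilotinib, 6.38 to 110 with imatinib and 68.8 to 114 with DMSO. Its nilotinib arrays lay below all DMSO arrays, and with no filter its log2 fold change was -1.51 ± 0.46 with nilotinib (adjusted p = 0.0151) and -0.68 ± 0.46 with imatinib (adjusted p = 0.358).

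CASP2, the initiator recruited by the adaptor CRADD, had 1 of 3 tested probe sets called lower with each drug, and not the same one. The probe set 209811_at had 445, 433, 639 and 440 with nilotinib, 496, 608, 643 and 593 with imatinib, and 636, 572, 701 and 609 with DMSO. Nilotinib replicate 3 lay within the DMSO range and the other 3 nilotinib arrays below it. It fell by 0.37 ± 0.13 on the log2 scale with nilotinib (SE, adjusted p = 0.0255) and had -0.11 ± 0.13 with imatinib (adjusted p = 0.576). This call was lost without nilotinib replicates 1 (-0.33, adjusted p = 0.0617), 2 (-0.32, adjusted p = 0.0651) or 4 (-0.33, adjusted p = 0.0665), without DMSO replicates 9 (-0.36, adjusted p = 0.0536) or 11 (-0.32, adjusted p = 0.0806), and with the 4 high-actin-ratio arrays left out (-0.24, adjusted p = 0.190). It was lost as well when CASP2 was tested by the mean of its probe sets (-0.30, adjusted p = 0.0743).

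The CASP2 probe set 34449_at had 224, 271, 343 and 291 with nilotinib, 228, 247, 268 and 322 with imatinib, and 366, 347, 399 and 336 with DMSO. All imatinib arrays lay below the DMSO arrays, and nilotinib replicate 3 alone among the treated arrays overlapped with them. It fell by 0.43 ± 0.16 on the log2 scale with imatinib (SE, adjusted p = 0.0438) and had -0.35 ± 0.16 with nilotinib (adjusted p = 0.0680), which passed without nilotinib replicate 3 (-0.45, adjusted p = 0.0310), with quantile normalization (-0.62, adjusted p = 0.00373) and in 5 of 23 alternatives in all. The imatinib call was lost without any 1 of imatinib replicates 5 (-0.36, adjusted p = 0.118), 6 (-0.40, adjusted p = 0.0910) and 7 (-0.43, adjusted p = 0.0717). It was also lost without any 1 of DMSO replicates 9 (-0.42, adjusted p = 0.0864), 10 (-0.45, adjusted p = 0.0685), 11 (-0.38, adjusted p = 0.119) and 12 (-0.46, adjusted p = 0.0574), and with the 4 high-actin-ratio arrays left out (-0.28, adjusted p = 0.191) or no filter (adjusted p = 0.0738). The third tested probe set, 208050_s_at, had 247 to 403 with nilotinib, 291 to 444 with imatinib and 276 to 454 with DMSO, and did not pass with either drug (-0.17 ± 0.18 with nilotinib and 0.01 ± 0.18 with imatinib). Below the filter, 209812_x_at had 17.4 to 58.0, 23.4 to 40.6 and 11.6 to 82.2 with nilotinib, imatinib and DMSO in that order. In the same order 211140_s_at had 17.7 to 68.2, 15.7 to 46.6 and 15.1 to 30.2. Their groups overlapped, and with no filter neither passed with either drug.

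CASP6, the executioner that cleaves lamin A, was called higher by 1 of its 2 probe sets, with imatinib. The probe set 211464_x_at had 1130, 1249, 951 and 868 with nilotinib, 1254, 1378, 1082 and 1200 with imatinib, and 972, 942, 1037 and 866 with DMSO. The imatinib arrays lay above all DMSO arrays, and on both drugs the 2 highest arrays were those of high actin ratio. It rose by 0.36 ± 0.11 on the log2 scale with imatinib (SE, adjusted p = 0.0179) and had 0.12 ± 0.11 with nilotinib (adjusted p = 0.357). The call was lost without imatinib replicate 6 (0.30, adjusted p = 0.0608) or DMSO replicate 12 (0.31, adjusted p = 0.0591), with the 4 high-actin-ratio arrays left out (0.26, adjusted p = 0.0678) and with median centring (0.13, adjusted p = 0.470), a setting in which the nilotinib value turned to -0.40 (adjusted p = 0.0122). The probe set 209790_s_at had 994, 711, 1016 and 904 with nilotinib, 989, 1014, 1086 and 1216 with imatinib, and 1101, 771, 949 and 1101 with DMSO. All 3 groups overlapped, and its log2 fold changes of -0.11 ± 0.13 with nilotinib and 0.14 ± 0.13 with imatinib did not pass.

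Of the IAP genes, BIRC2 rose with both drugs by its only probe set, 202076_at, a call lost for nilotinib with median centring. The signals were 2588, 2159, 2270 and 2340 with nilotinib, 2244, 2199, 2371 and 2108 with imatinib, and 1476, 1666, 1586 and 1445 with DMSO. All 8 treated arrays lay above the 4 DMSO arrays. The mean was 2339 ± 182 with nilotinib and 2230 ± 110 with imatinib, against 1544 ± 102 with DMSO (SD, n = 4 each). The log2 fold change was 0.59 ± 0.08 with nilotinib (SE, adjusted p = 3.75e-06) and 0.53 ± 0.08 with imatinib (adjusted p = 2.45e-05). For imatinib the call held in all 25 alternatives (0.30 to 0.57), and for nilotinib in 24, the exception being median centring (0.07, adjusted p = 0.562).

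XIAP, the direct caspase inhibitor, fell with imatinib by its tested probe set. The probe set 206536_s_at had 124, 151, 129 and 102 with nilotinib, 61, 37, 88.5 and 72.1 with imatinib, and 154, 142, 137 and 177 with DMSO. The imatinib arrays lay below all others, and the nilotinib and DMSO arrays overlapped. It fell by 1.10 ± 0.27 on the log2 scale with imatinib (SE, adjusted p = 0.00404), in all 24 alternatives that kept it (-1.36 to -0.76). With nilotinib it had -0.25 ± 0.27 (adjusted p = 0.453), which passed with quantile normalization (-0.76, adjusted p = 0.0268), median centring (-0.77, adjusted p = 0.0205) and cyclic loess (-0.83, adjusted p = 0.0148). The other XIAP probe set, 206537_at, missed the filter by a small margin, with a mean log2 value of 6.58 against the limit of 6.59, while 206536_s_at had 6.94.

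The XIAP probe set 206537_at had 82, 15.6, 96.6 and 25 with nilotinib, 111, 40, 85.2 and 68.8 with imatinib, and 161, 126, 160 and 139 with DMSO. All 8 treated arrays lay below the DMSO arrays here, and the drugs overlapped with each other. With no filter its log2 fold change was -1.40 ± 0.42 with nilotinib (SE, adjusted p = 0.0134) and -0.87 ± 0.42 with imatinib (adjusted p = 0.166). The nilotinib signals of 15.6 and 25 lie near the pseudocount of 16, so the size of the nilotinib change depends on it. For nilotinib the 95% intervals of the XIAP probe sets overlapped (-0.83 to 0.33 for 206536_s_at and -2.28 to -0.52 for 206537_at), and whether the probe sets differ was not tested.

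The comparison of nilotinib with imatinib sets arrays of different doses (0.05 and 0.5 µM) side by side and does not compare the compounds at a matched dose. CYCS was the only 1 of the 12 tested probe sets that was called, against 11.4% of all probe sets tested (4.77% higher and 6.66% lower with nilotinib). It was lower with nilotinib, with a log2 fold change of -0.53 ± 0.09 (SE, adjusted p = 9.82e-04), and the call held in all 25 alternatives (-0.83 to -0.42). Its 2 nilotinib arrays of high actin ratio had 6048 and 4799, against 7681 and 8706 on the imatinib arrays of high ratio. The arrays of lower ratio had 5536 and 4821 with nilotinib, against 7256 and 6973 with imatinib. XIAP 206536_s_at had a log2 fold change of 0.85 ± 0.27 (adjusted p = 0.0520) and groups that did not overlap. The other XIAP probe set, 206537_at, went the other way with no filter (-0.53 ± 0.42, adjusted p = 0.455), and its groups overlapped. For all probe sets 16.6% had groups that did not overlap in this comparison, and for the members 3 of 12. XIAP 206536_s_at passed without imatinib replicate 7 (0.99, adjusted p = 0.0388) and without a variance trend (0.85, adjusted p = 0.0227). It also passed when genes were tested by 1 probe set or a mean (adjusted p = 0.0485 and 0.0417), and in none of the other alternatives. The filter came before the averaging, so the XIAP mean held 206536_s_at alone and the value stayed at 0.85.

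The other members did not pass between the drugs, which does not show that they were alike. For BIRC2 the difference was 0.07 (95% interval -0.09 to 0.23), for CASP8 213373_s_at 0.03 (-0.22 to 0.29) and for CASP9 203984_s_at -0.02 (-0.25 to 0.21). APAF1 204859_s_at had 0.30 (-0.01 to 0.61, adjusted p = 0.185) and groups that did not overlap. Its arrays of high actin ratio had 379 and 347 with nilotinib, against 261 and 248 with imatinib, and those of lower ratio had 280 and 288, against 257 and 264. CASP6 had -0.23 (-0.47 to 0.00) by 211464_x_at and -0.25 (-0.52 to 0.01) by 209790_s_at. CASP2 209811_at had -0.26 (-0.54 to 0.02), which passed without nilotinib replicate 3 (-0.39, adjusted p = 0.0475). With that array left out, 2 members were called, as they were without imatinib replicate 7, and with median centring 4 were called, all lower with nilotinib, against 30.3% of all probe sets (29.5% lower).

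Beside these 8 genes, 4 lists of other genes of the pathway were described by the brightest probe set of each gene. Their counts stand beside the shares of all probe sets tested, 33.1% higher and 21.8% lower with nilotinib, and 20% and 15.6% with imatinib. Of 7 other caspases 3 were tested, of which CASP10 and CASP4 were called higher with nilotinib and none lower, and none passed with imatinib (medians 0.79 and -0.01, beside 0.15 and 0.09 over all). CASP10, an initiator close to CASP8, averaged 401 ± 19.2 with nilotinib and 261 ± 47.6 with imatinib, against 226 ± 27.5 with DMSO (SD, n = 4 each). It rose by 0.79 ± 0.16 on the log2 scale with nilotinib (SE, adjusted p = 4.05e-04, lost with median centring at 0.27) and had 0.19 ± 0.16 with imatinib. Its other tested probe set, 210955_at, also rose with nilotinib (1.07 ± 0.28). CASP4, an inflammatory caspase, averaged 148 ± 48.1 with nilotinib and 67.5 ± 31.8 with imatinib, against 65.0 ± 16.4 with DMSO (SD, n = 4 each). It reached the filter on low values only through its nilotinib arrays, so its call with nilotinib (0.98 ± 0.36, adjusted p = 0.0279) is no support for a rise of the list, and it had -0.01 ± 0.36 with imatinib. Without nilotinib replicate 3 or 4 it lay below the filter and was not tested, and with no filter it passed with nilotinib (adjusted p = 0.0401). That call was lost under all 3 other scalings (0.37 to 0.46) and without nilotinib replicate 2 (0.93, adjusted p = 0.0553), DMSO replicate 9 (0.96, adjusted p = 0.0577) or DMSO replicate 11 (0.85, adjusted p = 0.0804).

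Of 8 other IAP genes and IAP antagonists 5 were tested, and 3 rose and 1 fell with nilotinib, while 2 rose and 1 fell with imatinib (medians 0.69 and 0.54). Over all probe sets tested, 33.1% were called higher and 21.8% lower with nilotinib, and 20% and 15.6% with imatinib. With quantile normalization and with cyclic loess 1 rose and 1 fell for each drug, and with median centring 1 rose and 2 fell for nilotinib. With nilotinib the shares of all probe sets, higher and lower, were 22.2% and 25.1% in the first setting. They were 23% and 25.3% with cyclic loess and 9.66% and 47.2% with median centring. For imatinib they were 16.1% and 15.3% with quantile normalization, and 16.8% and 17.5% with cyclic loess. HTRA2, a mitochondrial protease that removes IAP proteins, averaged 1692 ± 263 with nilotinib and 1600 ± 110 with imatinib, against 903 ± 49.0 with DMSO (SD, n = 4 each). It rose by 0.88 ± 0.10 on the log2 scale with nilotinib (SE, adjusted p = 6.39e-07) and by 0.81 ± 0.10 with imatinib (adjusted p = 3.00e-06), in all 25 alternatives for each drug. Its dimmer probe set, 211152_s_at, did not pass (0.29 ± 0.17 with nilotinib and 0.37 ± 0.17 with imatinib). BIRC5 (survivin), an IAP family member of dividing cells, fell by 0.77 ± 0.08 with nilotinib and fell by 0.36 ± 0.08 with imatinib by 202095_s_at. Its other tested probe sets did not pass, and the imatinib call was lost with the mean of the 3 (-0.14, adjusted p = 0.268).

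NAIP, an IAP family member that senses bacterial proteins, had 0.69 ± 0.18 with nilotinib (SE, adjusted p = 0.00425) and 0.54 ± 0.18 with imatinib (adjusted p = 0.0283). Both NAIP calls were lost under all 3 other scalings of the arrays. The imatinib call was also lost with no filter (adjusted p = 0.0568), without imatinib replicates 5 (0.51, adjusted p = 0.0703), 7 (0.50, adjusted p = 0.0758) or 8 (0.52, adjusted p = 0.0654) and without DMSO replicate 11 (0.44, adjusted p = 0.0962). BIRC7 (livin) had 1.26 ± 0.34 with nilotinib (adjusted p = 0.00439), a call lost under the same 3 scalings (0.74 to 0.81) and with the 4 high-actin-ratio arrays left out (1.02, adjusted p = 0.0697). With imatinib it had 0.80 ± 0.34 (adjusted p = 0.0740), which passed without imatinib replicate 8 (0.97, adjusted p = 0.0463) and was 0.43, which did not pass, without DMSO replicate 12.

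Of 13 death receptor and adaptor genes 9 were tested, and 1 rose and 4 fell with each drug (medians -0.20 with nilotinib and -0.06 with imatinib). The shares of all probe sets tested were 33.1% higher and 21.8% lower with nilotinib, and 20% and 15.6% with imatinib. TNFRSF10B, a receptor of the death ligand TRAIL, averaged 243 ± 42.4 with nilotinib and 313 ± 97.7 with imatinib, against 831 ± 56.1 with DMSO (SD, n = 4 each). It fell by 1.72 ± 0.19 on the log2 scale with nilotinib (SE, adjusted p = 6.89e-07) and fell by 1.42 ± 0.19 with imatinib (adjusted p = 1.21e-05). TNFRSF1A, a tumour necrosis factor receptor, fell by 0.84 ± 0.15 with nilotinib (adjusted p = 1.41e-04) and fell by 1.11 ± 0.15 with imatinib (adjusted p = 1.14e-05). Both receptors passed in all 25 alternatives for each drug. CRADD, the adaptor of CASP2, fell by 0.35 ± 0.12 with nilotinib (adjusted p = 0.0158) and fell by 0.66 ± 0.12 with imatinib (adjusted p = 2.03e-04), the first call being lost without nilotinib replicate 1 (-0.27, adjusted p = 0.0559) or DMSO replicate 9 (-0.32, adjusted p = 0.0519). The gene that rose was CASP8AP2, named after its values were seen, with 0.27 ± 0.11 with nilotinib (adjusted p = 0.0387) and 0.58 ± 0.11 with imatinib (adjusted p = 2.95e-04). With quantile normalization none rose and 5 fell with nilotinib, and with median centring none rose with either drug and 8 fell with nilotinib. Of all probe sets, quantile normalization called 22.2% higher and 25.1% lower with nilotinib. Median centring called 9.66% higher and 47.2% lower with nilotinib, and 9.36% higher with imatinib.

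CFLAR, which encodes the FLIP proteins that block CASP8 at death receptors and is known to give long and short forms, had 9 tested probe sets that did not move alike. The brightest, 209939_x_at, had 454 to 678 with nilotinib and 546 to 673 with imatinib, against 1968 to 2503 with DMSO. It fell by 1.94 ± 0.12 on the log2 scale with nilotinib (SE, adjusted p = 2.46e-10) and fell by 1.80 ± 0.12 with imatinib (adjusted p = 1.31e-09). The probe set 210563_x_at had -1.35 ± 0.11 with nilotinib and -1.43 ± 0.11 with imatinib, and both passed. Against these, 209508_x_at rose by 0.52 ± 0.13 and 208485_x_at by 0.44 ± 0.17 with nilotinib, and 210564_x_at fell by 0.99 ± 0.18 with imatinib. In all 2 rose, 2 fell and 5 did not pass with nilotinib, while none rose, 3 fell and 6 did not pass with imatinib. Averaged over its probe sets, CFLAR had -0.23 with nilotinib (adjusted p = 0.0946) and -0.55 with imatinib (adjusted p = 9.88e-04), so no single value stands for the gene.

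All 12 apoptosome partners and caspase targets were tested, and 4 rose and 2 fell with nilotinib, while 3 rose and 3 fell with imatinib (medians -0.04 and 0.06). Among all probe sets tested 33.1% were called higher and 21.8% lower with nilotinib, and 20% and 15.6% with imatinib. With median centring none rose and 9 fell with nilotinib, and 1 rose and 5 fell with imatinib. That centring called 9.66% of all probe sets higher and 47.2% lower with nilotinib, and 9.36% and 26.6% with imatinib. LMNA, the lamin A gene whose protein CASP6 cleaves, averaged 794 ± 154 with nilotinib and 715 ± 67.8 with imatinib, against 475 ± 70.0 with DMSO (SD, n = 4 each). It rose by 0.71 ± 0.14 on the log2 scale with nilotinib (SE, adjusted p = 3.26e-04) and by 0.58 ± 0.14 with imatinib (adjusted p = 0.00303), both calls being lost with median centring (0.19 and 0.35). Its other 3 tested probe sets rose with nilotinib (0.77 to 1.19), and 1 of them, 212086_x_at, with imatinib (0.84). LMNB1, the lamin B1 gene, fell by 0.73 ± 0.11 with nilotinib (adjusted p = 2.18e-05) and fell by 0.39 ± 0.11 with imatinib (adjusted p = 0.00928), in all 25 alternatives for each drug. GAS2, a cytoskeletal protein cleaved by caspases, fell by 1.00 ± 0.27 with nilotinib (adjusted p = 0.00462), and with imatinib it had -0.67 ± 0.27 (adjusted p = 0.0619), which passed in 7 of 24 alternatives, among them without nilotinib replicate 2 (adjusted p = 0.00543).

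SPTAN1, a membrane skeleton spectrin cut by caspases, differed between its probe sets. The brighter, 208611_s_at, had -0.48 ± 0.21 with nilotinib (SE, adjusted p = 0.0647) and fell by 0.56 ± 0.21 with imatinib (adjusted p = 0.0492), on the edge of the threshold. The imatinib call was lost without nilotinib replicates 1 or 4, imatinib replicates 6, 7 or 8, or DMSO replicates 9, 10 or 11 (-0.58 to -0.47, largest adjusted p = 0.148), and with no filter (adjusted p = 0.0955), while the nilotinib value passed in 7 of 24 alternatives. Apart from the mean of its probe sets, these were quantile normalization (-0.88, adjusted p = 0.00221), median centring (-1.0, adjusted p = 4.62e-04), cyclic loess (-0.90, adjusted p = 0.00199), no variance trend (adjusted p = 0.0424), array weights (-0.51, adjusted p = 0.0493) and leaving out imatinib replicate 5 (adjusted p = 0.0448). The mean (adjusted p = 6.98e-07) takes in 215235_at and is not a value of 208611_s_at alone. The probe set 215235_at averaged 34.5 ± 10.7 with nilotinib and 137 ± 40.4 with imatinib, against 364 ± 30.6 with DMSO (SD, n = 4 each). It was called lower with nilotinib (adjusted p = 3.16e-08), with imatinib (adjusted p = 4.70e-04) and with nilotinib against imatinib (adjusted p = 9.82e-04). Its treated arrays together average below the filter on low values, which it reached only through its DMSO arrays. These calls are therefore no support for a fall of SPTAN1. The nilotinib signals of 215235_at are dim enough that the pseudocount of 16 sets the size of a fold change. None is given for nilotinib, while it was -1.34 ± 0.26 (SE) with imatinib.

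**Figure D4:**
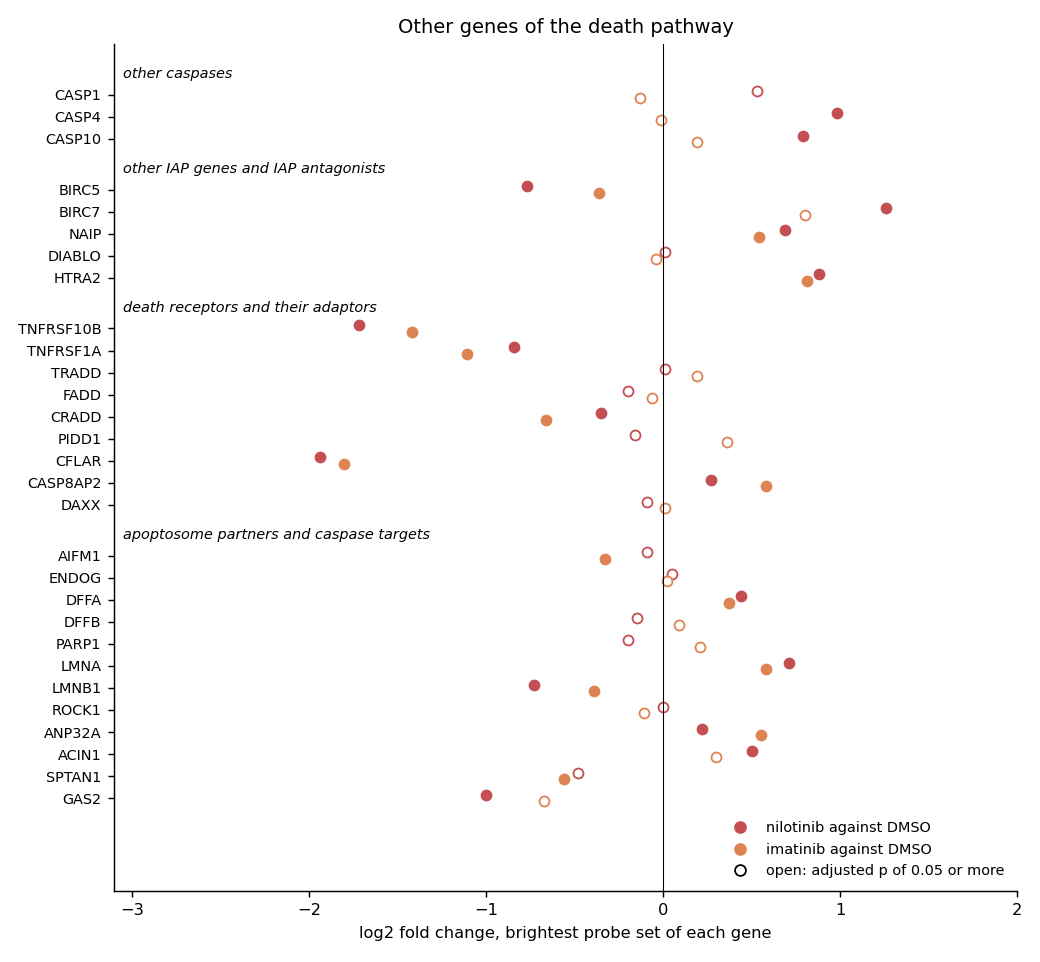
Log2 fold change against DMSO (horizontal axis, difference of log2(signal + 16)) of the other tested genes of the pathway, by the brightest probe set of each gene; filled points had an adjusted p under 0.05. TNFRSF10B and CFLAR lie farthest left with both drugs, and CASP4 and CASP10 are filled for nilotinib and open for imatinib.

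The genes whose signals followed those of CYCS most closely over the 12 arrays were CCT6A, a chaperonin subunit (Pearson's r = 0.988), CISD1, an iron-sulfur protein of the outer mitochondrial membrane (0.987), and HNRNPA2B1, an RNA-binding protein (0.986). Their log2 fold changes were -0.97, -1.35 and -1.07 with nilotinib and -0.55, -0.69 and -0.62 with imatinib. For XIAP 206536_s_at the closest were SART3 (r = 0.946), H2BC5, a histone H2B gene (0.915), and IL10RA, an interleukin receptor gene (0.894), with log2 fold changes of -0.09, -0.07 and -0.79 with nilotinib and -0.32, -0.43 and -1.75 with imatinib. Each gene was taken by its brightest tested probe set. Averaged over its probe sets, SART3 had -1.14 with nilotinib, so its probe sets did not move alike. These correlations are descriptions over arrays that share 3 groups and 1 scaling.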

How the data were processed

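RNA from 12 K562 samples was measured on Affymetrix U133A 2.0 arrays, 4 each for nilotinib, imatinib and DMSO, grouped by their titles. The deposited intensity values are linear and were computed by the authors with MAS5, a tool named without a version per the submitters' processing notes. In MAS5 a local background is subtracted and 1 scaling factor is applied to an array, and background differences can remain in dim probe sets. The values were used as deposited, because the trimmed means differed by 0.02%, within the limit of 10%. No array was identical to another. The number of arrays limits the precision, the standard error of a log2 fold change having a median of 0.158.

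Values were taken as log2(signal + 16), which understates changes of dim genes. Of 22277 probe sets, 62 were controls, 19064 named 1 gene, 1043 several and 2108 none, with symbols updated by gene identifier. Each probe set naming 1 gene with a mean at or above the 40th percentile was tested separately (11696) with limma 3.58.1 in R 4.3.3. The fit had 1 mean per group, 9 residual degrees of freedom and a variance trend, with Benjamini-Hochberg adjustment over all tested and a call at an adjusted p of 0.05. The test was tried on simulated data. Python 3.11.15 and matplotlib 3.10.9 made the figures. Promoters come from RefSeq, which held all 8 genes.

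The members and lists were chosen with earlier results of these data known. Named were all member probe sets, up to 4 called genes per list with the largest change, and the 3 genes most correlated with each of the 2 members of largest change. The alternatives were cyclic loess, median centring and quantile normalization, a filter at the 60th percentile or none, pseudocounts of 1 and 64, 1 probe set or the mean per gene, no variance trend, array weights, only the 2 groups compared, and arrays left out.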

Additional observations from a re-analysis of the deposited data

Results flagged for a closer look

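Among the 54 groups of 4 arrays formed by the 18 probe sets, 1 had an array far from the other 3, where chance flags about 1 group in 20. It was CASP2 209811_at with nilotinib, in which replicate 3 (639) stood apart from 445, 433 and 440, and the gap was 0.945 of the group's range, above Dixon's 95% critical value. The actin 3'/5' ratio of that array was 1.82, the lowest of the 12.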

How the results depend on the processing

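No paired analysis was possible because the sample numbers run from 1 to 12 over the groups and no number is shared. The members called numbered 4 with nilotinib, 5 with imatinib and 1 between the drugs. For nilotinib the count was 9 of 12 with median centring (56.8% of all features called), 7 of 12 without a variance trend (53.5%), 2 of 8 when probe sets were averaged by gene (57.6%) and 2 to 5 of 12 or 13 when single arrays were left out (50.1 to 54.9%). For imatinib it was 3 of 13 without the 4 arrays of high actin ratio (35%) and 3 to 6 without single arrays (31 to 37.6%). Between the drugs it was 4 with median centring (30.3%), 2 of 8 with the brightest probe set or the mean per gene (14 and 13.2%), 2 without a variance trend (8.38%) and 1 to 2 without single arrays (6.82 to 10.7%). Over all probe sets, 1337 were called between the drugs, against 3541 with median centring, 516 without the 4 arrays of high actin ratio and 798 to 1254 without single arrays. Fewer features enter when genes have 1 value each, and fewer arrays when some are left out. For the other settings the cause was not tested.

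The direction turned, with a call under the alternative alone, for CASP6 211464_x_at with nilotinib (0.12, against -0.40 with median centring) and for SPTAN1 208611_s_at between the drugs (0.08, against -0.75 with the mean of its probe sets, which takes in 215235_at). Signals of the XIAP probe sets and of the 6 probe sets below the filter lie near or below the filter, where the number of arrays and the signal over background limit what can be read.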
